A study of Mus musculus with 6 samples.

Results

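The 10 genes described here encode A20, its binding partners and the other enzymes that take apart or remodel ubiquitin chains to hold back NF-kB signalling. They were chosen by symbol (Tnfaip3, Tnip1, Tnip2, Tax1bp1, Itch, Rnf11, Cyld, Otulin, Otud7b and N4bp1), and each of the 10 matched 1 of the 54446 Ensembl genes in every count table. All 10 passed the filter on low counts, which left 13172 genes tested.

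Total RNA was read from Treg cells (regulatory T cells, the Foxp3-expressing CD4 T cells that restrain immune responses), sorted as live CD45+ CD4+ Foxp3-GFP+ cells from subcutaneous B16F10 melanomas in mice. The 3 libraries labelled Ythdf2 cKO came from Foxp3Cre Ythdf2fl/fl mice, in which Cre recombinase driven by Foxp3 is set to delete Ythdf2 in Treg cells. The 3 control libraries, titled WT Control, came from Foxp3Cre Ythdf2fl/+ mice. Both groups thus carry the Cre and at least 1 floxed allele, so the controls are themselves set to lose 1 copy of Ythdf2. No group without Cre was used here. Cage 2 held Ythdf2 cKO replicates 2 and 3 and control replicate 3, and cage 1 held Ythdf2 cKO replicate 1 and control replicates 1 and 2. Mouse age and sex are not given in the labels, and nothing in them ties a library to an animal of its own. The p-values below therefore measure only the spread between these libraries, which may be technical.

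NF-kB is switched on when ubiquitin chains built on receptor and adaptor proteins recruit the IkB kinase (IKK) complex. A20 edits such chains with the help of Tax1bp1, Itch and Rnf11, and its partners Tnip1 (ABIN1) and Tnip2 (ABIN2) bind ubiquitin. CYLD, OTULIN and OTUD7B (Cezanne) cut chains by themselves. Tnfaip3 is itself induced by NF-kB, which makes A20 a feedback brake, and in mice the loss of A20 or Itch leads to inflammatory disease.

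The gene counts summed to between 5602053 and 13602069 per library. The targeted gene did not mark the groups. Ythdf2 stood at 89.8, 104 and 104 CPM (gene counts brought to a common library size, with TMM scaling) in libraries labelled Ythdf2 cKO and at 124, 102 and 92.8 CPM in the controls (edgeR log2 fold change -0.10, standard error 0.16, adjusted p = 1). The counts are over the whole gene and the labels do not say which exons are floxed, so the deletion could not be checked and groups are named as labelled. The cages stood apart in other cells' RNA. The sum of 7 melanoma markers was 2256 to 4680 CPM in cage 2, against 43.3 to 459 CPM in cage 1. The sum of 9 Treg markers, Foxp3 and Cd4 among them, was 3712 to 5100 CPM in cage 2 and 6170 to 6869 CPM in cage 1, with none of the 9 at 0 in any library. Mitochondrial ribosomal RNA took 42.6% of gene counts in control replicate 3 and 9.98% to 19.2% in the other libraries.

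The kB consensus, the sequence that NF-kB dimers bind, was searched on both strands in RefSeq promoter windows (GRCm38.p6, from 250 bases before to 50 bases after a start site). Windows were found for 7 of the 10 genes, and not for Itch, Rnf11 or Otud7b. The consensus occurred in a window of 4 genes (Tnfaip3, Tnip1, Tax1bp1 and Cyld), and in 1480 of the 32851 windows of that length in the table, or 4.51%. The windows of Tnfaip3, Tnip1 and Cyld are shown because they hold the consensus at the first listed start site of the central enzyme, its main partner and a second deubiquitinase. Capitals mark the matches, and each sequence reads in the direction of its gene.
Tnfaip3 (chr10:19015361-19015660, minus strand): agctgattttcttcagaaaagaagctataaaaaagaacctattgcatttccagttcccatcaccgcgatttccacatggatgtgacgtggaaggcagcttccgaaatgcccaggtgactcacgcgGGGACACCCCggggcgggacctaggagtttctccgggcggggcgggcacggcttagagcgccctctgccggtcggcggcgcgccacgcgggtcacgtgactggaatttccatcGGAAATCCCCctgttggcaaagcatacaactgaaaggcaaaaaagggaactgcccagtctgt
Tnip1 (chr11:54962891-54963190, minus strand): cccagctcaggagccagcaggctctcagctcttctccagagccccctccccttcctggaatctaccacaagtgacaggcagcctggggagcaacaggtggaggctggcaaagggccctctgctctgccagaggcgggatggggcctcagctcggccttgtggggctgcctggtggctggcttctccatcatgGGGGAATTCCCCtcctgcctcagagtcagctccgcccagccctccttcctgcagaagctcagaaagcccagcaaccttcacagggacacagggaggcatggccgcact
Cyld (chr8:88696778-88697077, plus strand): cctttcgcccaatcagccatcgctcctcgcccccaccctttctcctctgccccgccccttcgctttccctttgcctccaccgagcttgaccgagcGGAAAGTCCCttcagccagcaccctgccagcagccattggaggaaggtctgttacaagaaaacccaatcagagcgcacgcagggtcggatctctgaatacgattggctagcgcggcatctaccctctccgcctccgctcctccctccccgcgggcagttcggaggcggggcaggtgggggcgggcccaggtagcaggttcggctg
Of the matches in the Tnfaip3 window, 1 begins 125 bases before the start site and the other 12 bases before it. In Tnip1, 4 overlapping matches on the 2 strands make up a single palindromic run of 12 bases. These are matches of letters, and no binding was measured.

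YTHDF2 binds mRNAs that carry N6-methyladenosine (m6A), a mark set most often in a few short sequences, of which GGACT is among the commonest, and often close to stop codons. GGACT was counted within 100 bases on either side of the stop codon in the longest coding transcript of each gene (GENCODE M21). It was present in 6 of the 10 genes, and in 2728 of the 10988 transcripts of tested genes that could be scored, or 24.8%. The sites are shown because they are where a reader of the mark could meet these transcripts, although methylation was not measured. Capitals mark GGACT on the coding strand.
Itch, first site (chr2:155224487-155224511, plus strand): cagaggccagGGACTtgtctgcagt
Itch, second site (chr2:155224549-155224573, plus strand): ttgtaaacttGGACTgtgactagag
N4bp1 (chr8:86844679-86844703, minus strand): ccctggtgttGGACTgacggctggg
Otulin (chr15:27606337-27606361, minus strand): atccccccaaGGACTggccaatggt
Rnf11 (chr4:109454333-109454357, minus strand): tctatcacctGGACTgtatagatga
Tax1bp1 (chr6:52765992-52766016, plus strand): agttcccgccGGACTacgaccagca
Tnip2 (chr5:34496626-34496650, minus strand): ctgctctaagGGACTgggaggggtc
The sites of Itch and Tnip2 lie in the 3′ untranslated region and those of the other 4 genes in coding sequence. Tnfaip3, Tnip1, Cyld and Otud7b had none in this window. Over whole transcripts Tnfaip3 held 11 copies, or 2.49 per kilobase, against a median of 1.04 per kilobase over the scored transcripts. Tax1bp1 held the fewest, 1 copy in 3285 bases.

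The 10 genes covered a wide range of levels, set by Tnfaip3 at the top. On the TPM scale, which divides counts by exon length so that genes can be compared, Tnfaip3 averaged 509 ± 182 TPM over the 6 libraries (SD, n = 6). It ranked between 21 and 50 among protein-coding genes in each library. Tnip1 followed with 122 ± 41.5 TPM, then Tax1bp1 with 56.8 ± 14.2 TPM, Otulin with 42.0 ± 16.2 TPM and Cyld with 28.0 ± 9.03 TPM. N4bp1 averaged 22.4 ± 8.57 TPM, Itch 17.8 ± 6.14 TPM, Tnip2 15.1 ± 8.52 TPM, Rnf11 13.7 ± 3.84 TPM and Otud7b 11.2 ± 3.67 TPM.

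With the union of exons as gene length, the order of the first 6 genes held within every library, since each lay above the next in 6 of 6. With the longest transcript as length the order of the means was the same, but the gaps were smaller. Tnip1 then averaged 133 TPM and Tax1bp1 123 TPM, while Otulin was at 43.7, Cyld at 40.3 and N4bp1 at 38.6 TPM. The order within each library was not examined with that length. Itch lay above Tnip2 in 4 of 6 libraries, Tnip2 above Rnf11 in 2 of 6 and Rnf11 above Otud7b in 4 of 6, so these neighbours were not separated beyond their spread, although Itch and Tnip2 each lay above Otud7b in 6 of 6. Tnfaip3 made up 61.8%, 61.3% and 59.9% of the summed TPM of the 10 genes in Ythdf2 cKO replicates 1, 2 and 3, and 57.3%, 63.3% and 59.7% in control replicates 1, 2 and 3. These shares overlap. Tnfaip3 stood at 4.35, 4.24 and 4.16 times the TPM of its partner Tnip1 in libraries labelled Ythdf2 cKO and at 3.53, 4.57 and 4.35 times in the controls. Each of the 10 genes had its lowest TPM in control replicate 3, the library with the most mitochondrial ribosomal RNA, which takes a share of every TPM value.

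**Figure D1:**
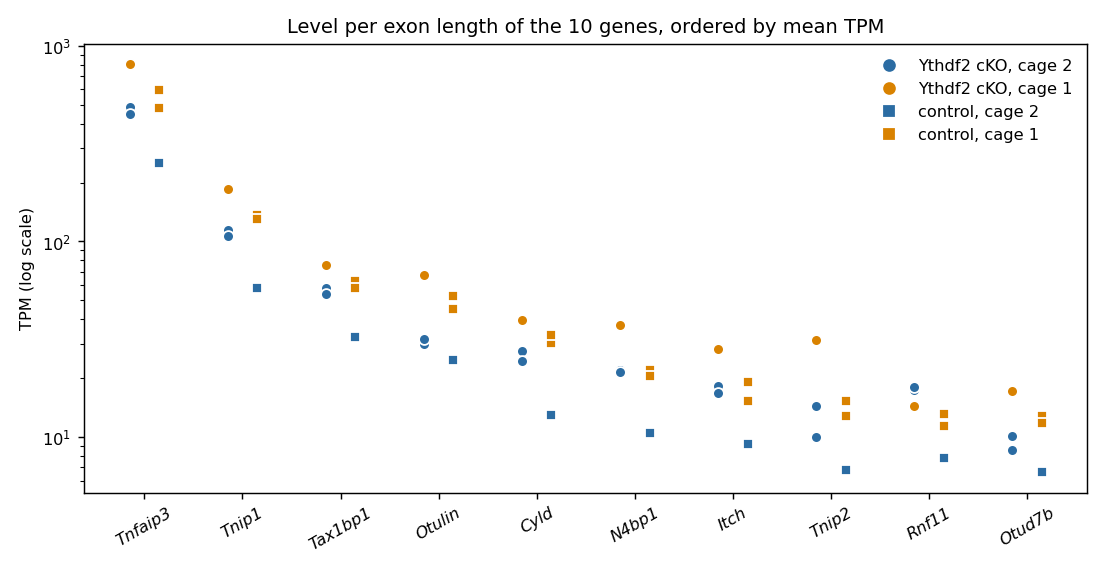
TPM (log scale) of each of the 10 genes in each library, ordered by mean TPM, with circles for libraries labelled Ythdf2 cKO and squares for controls, blue for cage 2 and orange for cage 1. Tnfaip3, from 250.3 to 804 TPM, lies above every other gene, and the ranges of the last 4 genes overlap.

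The comparison of genotypes asks how the RNA of tumour Treg cells labelled as lacking Ythdf2, a reader of m6A, differs from that of controls. Between the genotypes none of the 10 genes passed the threshold (quasi-likelihood test of edgeR, Benjamini-Hochberg adjusted p = 1 for each over 13172 genes). The same holds for all genes, of which 0% were called, and 213 genes, or 1.62%, had an unadjusted p under 0.05, with 0 of the 10 among them. By DESeq2 0 genes were called and 279 had an unadjusted p under 0.05, N4bp1 among them (0.0498), and by limma-voom 0 and 239, with 0 of the 10. In simulated counts with the spread of this fit, 0% of genes changed 2-fold and 45% of those changed 4-fold were recovered. The fit on genotype alone thus could not detect a change of 2-fold. In the simulation of the cage comparison, with genotype as a term, 34.5% of genes changed 2-fold and 66% of those changed 4-fold were recovered. The intervals below give the sizes that remain possible.

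Within the A20 complex, Tnfaip3 (chromosome 10, 19000910 to 19015657, mm10) was at 3282, 2244 and 2164 CPM in Ythdf2 cKO replicates 1, 2 and 3, and at 2133, 2690 and 1911 CPM in control replicates 1, 2 and 3. Ythdf2 cKO replicate 1 was the highest and control replicate 3 the lowest, and the groups overlapped. The mean was 2564 ± 624 CPM in libraries labelled Ythdf2 cKO and 2245 ± 402 CPM in controls (SD, n = 3 each), and the log2 fold change was 0.19 (standard error 0.25), with -0.39 and 0.77 as the bounds of its 95% interval.

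Tnip1 (chromosome 11, 54910785 to 54962917), whose product ABIN1 brings A20 to ubiquitin chains, was at 369, 260 and 255 CPM in libraries labelled Ythdf2 cKO and at 296, 289 and 215 CPM in the controls. The groups overlapped, and the log2 fold change was 0.14 (standard error 0.21). Tnip2 (chromosome 5, 34496087 to 34513991), whose product ABIN2 also stabilises the kinase TPL2, was at 47.5, 17.3 and 26.1 CPM in libraries labelled Ythdf2 cKO and at 25.4, 21.6 and 19.2 CPM in the controls. Its lowest and its highest value were both in libraries labelled Ythdf2 cKO. It had 122 to 320 reads per library, and its log2 fold change of 0.45 had an interval from -0.42 to 1.33.

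Tax1bp1 (chromosome 6, 52713729 to 52766780), an adaptor of A20 and a receptor for selective autophagy, varied least. It was at 431, 369 and 363 CPM in libraries labelled Ythdf2 cKO and at 385, 364 and 343 CPM in the controls, and its highest value was 1.26 times its lowest. The log2 fold change was 0.090, with an interval from -0.25 to 0.43. A gene on the other strand shares 160 of its exon bases and had at most 6 reads in a library. Itch (chromosome 2, 155133509 to 155226855), a HECT ubiquitin ligase, was at 154, 113 and 110 CPM in libraries labelled Ythdf2 cKO and at 91.6, 117 and 94.3 CPM in the controls. Control replicate 2 lay above Ythdf2 cKO replicates 2 and 3, and the log2 fold change was 0.32 (standard error 0.19).

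Rnf11 (chromosome 4, 109451098 to 109484728), the RING ligase of the complex, was the 1 gene of the 10 without its highest value in Ythdf2 cKO replicate 1. It was at 34.8, 47.8 and 51.4 CPM in Ythdf2 cKO replicates 1, 2 and 3 and at 29.8, 35.1 and 35.1 CPM in the controls. Its mean was 44.7 ± 8.76 CPM in libraries labelled Ythdf2 cKO and 33.3 ± 3.04 CPM in the controls, with a log2 fold change of 0.42 and an interval from -0.069 to 0.91.

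Among the deubiquitinases that act outside the A20 complex, Cyld (chromosome 8, 88697028 to 88751945) was at 283, 223 and 208 CPM in libraries labelled Ythdf2 cKO and at 234, 261 and 172 CPM in the controls. The groups overlapped, with a log2 fold change of 0.095 (standard error 0.20). Otulin (chromosome 15, 27542635 to 27630693), the enzyme specific for linear chains, was at 64.6, 32.6 and 36.2 CPM in Ythdf2 cKO replicates 1, 2 and 3 and at 54.6, 48.2 and 44.3 CPM in the controls. Otud7b (chromosome 3, 96104527 to 96161129) was at 89.0, 50.4 and 62.4 CPM in Ythdf2 cKO replicates 1, 2 and 3 and at 72.4, 67.7 and 64.2 CPM in the controls. In both genes Ythdf2 cKO replicate 1 lay above all 3 controls and replicates 2 and 3 below all 3, so the genotypes differed in opposite directions within the 2 cages, as they did in 23.7% of all genes tested. A test of that difference (interaction of genotype and cage, chosen after the data were seen) passed for neither gene, and 0.0456% of all genes passed. Their log2 fold changes were -0.14 (interval from -0.80 to 0.51) and -0.020 (interval from -0.54 to 0.50).

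N4bp1 (chromosome 8, 86808160 to 86885258), a ubiquitin-binding protein that restrains NF-kB, was the 1 gene of the 10 whose groups did not overlap, with the libraries labelled Ythdf2 cKO above. Such separation held for 7.62% of all genes tested in either direction and for 3.4% with those libraries above. It was at 257, 173 and 177 CPM in libraries labelled Ythdf2 cKO and at 165, 157 and 136 CPM in the controls. The mean was 202 ± 47.4 CPM in libraries labelled Ythdf2 cKO and 153 ± 15.4 CPM in controls (SD, n = 3 each). The log2 fold change of 0.41 (standard error 0.19, interval from -0.048 to 0.86) did not pass (edgeR adjusted p = 1, unadjusted 0.073).

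**Figure D2:**
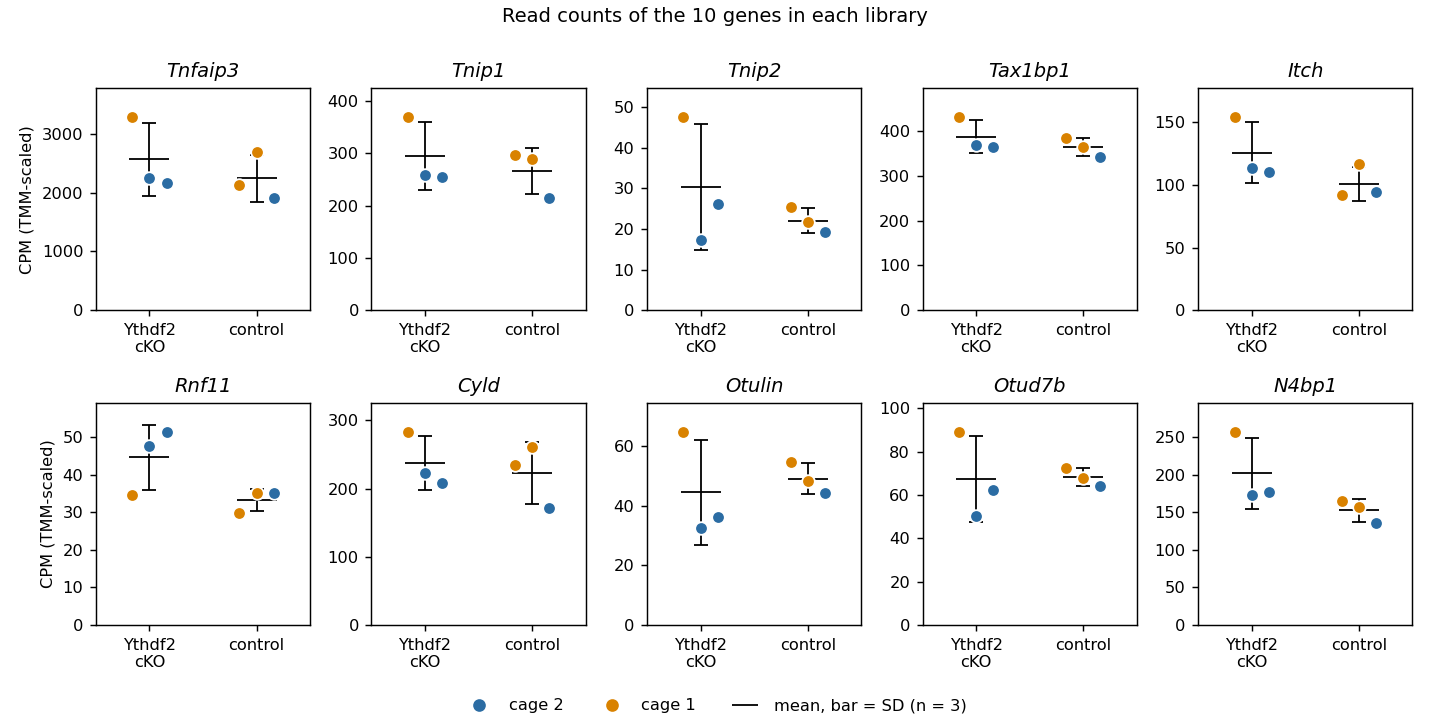
CPM of each gene in each library, libraries labelled Ythdf2 cKO on the left and controls on the right of each panel, blue for cage 2 and orange for cage 1, with the mean and SD of each group in black (n = 3). The orange point on the left, Ythdf2 cKO replicate 1, is the highest of the 6 in 9 of the 10 panels, all but Rnf11.

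Ythdf2 cKO replicate 1 thus had the highest CPM of the 6 libraries in 9 of the 10 genes, against 25.2% of all genes tested. It is the smallest library, with the lowest sum of melanoma markers (43.3 CPM, Tyr at 0) and 6 of 9 macrophage and monocyte markers at 0. The part of these in the result was not tested. Of the 10 genes, 8 had a log2 fold change above 0 with TMM scaling, against 49.3% of all genes, with a median of 0.17 against -0.0049. With total counts 9 were above 0, against 67.8% of all genes. Without Ythdf2 cKO replicate 1 (TMM scaling), 4 were above 0 and 6 below, where 49.1% of all genes were above 0. The median of the 10 was then -0.032, against -0.0069 over all genes. Without that library Tnfaip3 was at -0.032, Tnip1 at -0.057, Tnip2 at -0.032 and Cyld at -0.054, while Rnf11 (0.57), N4bp1 (0.19), Itch (0.14) and Tax1bp1 (0.0025) were the 4 above 0.

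Within each cage, the libraries labelled Ythdf2 cKO lay above the controls without overlap in 6 of the 10 genes (Tnfaip3, Tnip1, Tax1bp1, Itch, Cyld and N4bp1), a pattern found in 14.5% of all genes tested. Each cage holds only 3 libraries. For Tnfaip3 the log2 CPM difference of Ythdf2 cKO from control was 0.21 within cage 2 and 0.45 within cage 1, and for N4bp1 it was 0.37 within cage 2 and 0.67 within cage 1. With cage as a term, 9 of 10 genes had a log2 fold change above 0, against 46.3% of all genes, with a median of 0.30. Of the 10, 4 had an unadjusted p under 0.05 (Tnfaip3, Tnip1, Itch and N4bp1), all higher, against 4.31% of all genes. The largest of these was N4bp1, at 0.52 with a standard error of 0.13 (unadjusted p = 0.00237). None passed after adjustment over all genes, and the lowest adjusted p among the 10 was 0.45 (edgeR with cage as a term, 0 of 13172 genes called, 1345 at an unadjusted p under 0.05).

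The Treg markers took the same direction with cage as a term, and most of them did so within both cages. With cage as a term 9 of 9 were above 0, from 0.021 for Cd3d to 0.29 for Tnfrsf18. Foxp3 was at 0.25 and Cd4 at 0.21. Each of the related gene lists described below also had a median above 0 in that fit. These medians ran from 0.076 for the other deubiquitinases to 0.20 for the NEDD4 family and for the NF-kB feedback and target genes. The median of all genes was -0.041. Within both cages 6 of the 9 markers had a mean log2 CPM above that of the controls (Foxp3, Cd4, Ctla4, Ikzf2, Cd3e and Tnfrsf18). Il2ra (-0.24), Cd3d (-0.13) and Cd3g (-0.054) were lower in the library labelled Ythdf2 cKO within cage 1. In the fit on genotype alone the median of the markers was 0.0072. Foxp3 was at 357 and 358 CPM in libraries labelled Ythdf2 cKO against 323 CPM in the control within cage 2, and at 606 CPM against 447 and 494 CPM within cage 1, without overlap in either. Cd4 overlapped within cage 1, at 704 CPM against 557 and 716 CPM in the controls. The part of the Treg markers in the result was not tested.

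**Figure D3:**
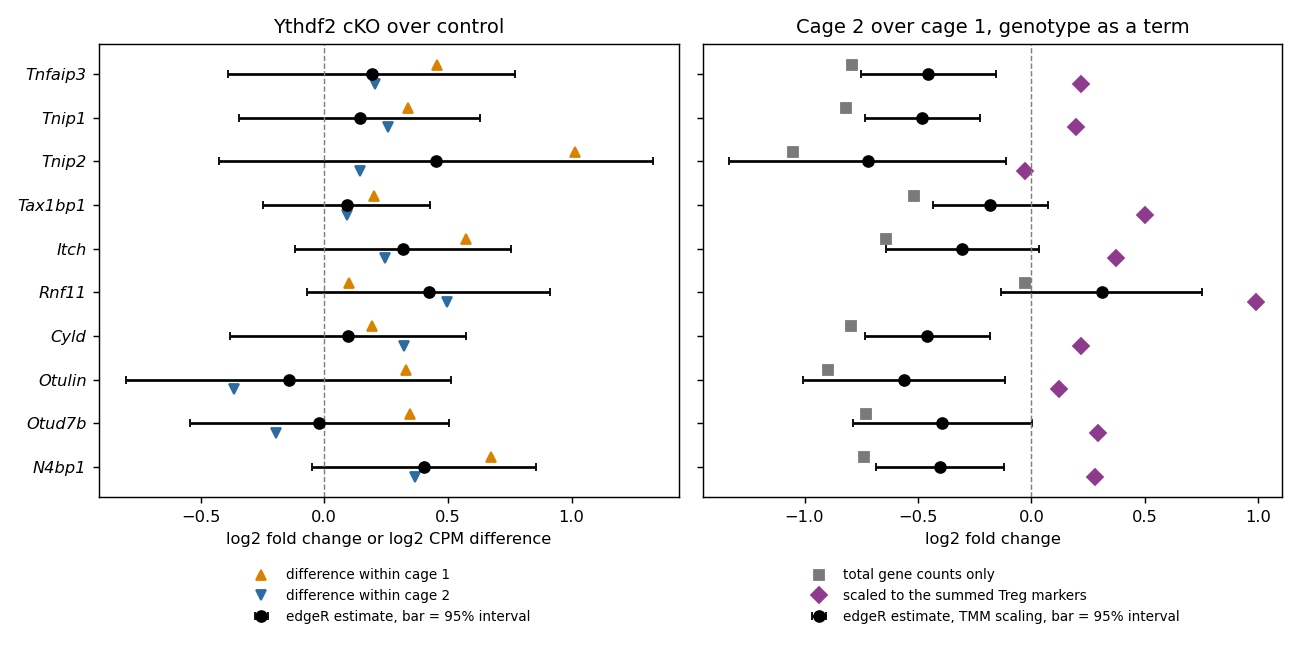
Left, log2 fold change of Ythdf2 cKO over control with 95% intervals (black) and the log2 CPM differences within each cage (triangles). Right, log2 fold change of cage 2 over cage 1 with 95% intervals under TMM scaling (black), with total counts (grey squares) and scaled to the summed Treg markers (purple diamonds). Every interval on the left includes 0, and on the right all but 1 of the diamonds lie above 0.

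Between the cages 2 of the 10 genes passed the threshold. With TMM scaling cage 2 lay below cage 1 in 9 of the 10 genes, against 49.2% of all genes. With total counts it lay below in 10 of the 10, where 32.8% of all genes were above 0. Scaled to Treg markers it lay below in 1 of the 10, where 90.5% of all genes were above 0. Tnip1 and Cyld were the 2 that passed with TMM scaling, both lower (edgeR with genotype as a term). Of all genes 11.5% were called in either direction, 3.68% as lower and 7.83% as higher. Tnip1 was at 215, 260 and 255 CPM in the cage 2 libraries and at 369, 296 and 289 CPM in those of cage 1, with no overlap. It differed by -0.48 on the log2 scale (standard error 0.11, edgeR adjusted p = 0.027). Cyld was at 172, 223 and 208 CPM in cage 2 and at 283, 234 and 261 CPM in cage 1, again without overlap, at -0.46 on the log2 scale (standard error 0.12, edgeR adjusted p = 0.043).

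Tnfaip3 lay just short of the threshold at -0.46 (standard error 0.13, edgeR adjusted p = 0.057), with means of 2106 ± 174 CPM in cage 2 and 2702 ± 575 CPM in cage 1 (SD, n = 3 each). N4bp1 was at -0.40 (adjusted p = 0.073), Otulin at -0.56 (0.11), Tnip2 at -0.72 (0.13), Otud7b at -0.39 (0.19), Itch at -0.30 (0.24) and Tax1bp1 at -0.18 (0.35). Rnf11 was the exception, with 44.8 ± 8.59 CPM in cage 2 and 33.2 ± 2.96 CPM in cage 1 and a log2 fold change of 0.31 (adjusted p = 0.36) that turned to -0.026 with total counts as the scaling. That scaling moved the median of all genes to -0.32 between the cages and to 0.14 between the genotypes, against 0.013 and -0.0049 with TMM. Cage 2 lay wholly below cage 1 in 4 genes (Tnip1, Cyld, Otulin and Otud7b), as it did in 12.2% of all genes, while the cages separated in either direction in 27.3%.

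Leaving out 1 library changed these calls. Tnip1 missed the threshold without control replicate 2 (edgeR adjusted p = 0.078), control replicate 3 (0.077) or Ythdf2 cKO replicate 1 (0.16), 2 (0.060) or 3 (0.11). Cyld missed it without any 1 of the 6 libraries (adjusted p from 0.056 without control replicate 1 to 0.17 without control replicate 3). Tnfaip3 passed without control replicate 1 (-0.54, adjusted p = 0.017), and Otulin without control replicate 3 (-0.89, adjusted p = 0.049).

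The Treg markers moved with the cage as well. All 9 were below 0 in cage 2, 6 of them past the threshold, with a median of -0.64 against -0.43 for the 10 genes, while all 7 melanoma markers were past the threshold as higher, with a median of 4.51. Of 9 macrophage and monocyte markers 9 were above 0 and 5 past the threshold, but their sum overlapped between the cages. In cage 2 it was 18.1 and 109 CPM in Ythdf2 cKO replicates 2 and 3 and 250 CPM in control replicate 3. In cage 1 it was 5.39 CPM in Ythdf2 cKO replicate 1 and 17.2 and 47.4 CPM in control replicates 1 and 2. Foxp3 was at 346 ± 19.6 CPM in cage 2 and 516 ± 81.4 CPM in cage 1, a log2 fold change of -0.65 (edgeR adjusted p = 0.0091). In bulk RNA, fewer Treg cells in a library and less of a transcript per Treg cell cannot be told apart.

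Scaled to the summed counts of the 9 Treg markers, a setting chosen after the data were seen, the cage difference of the 10 genes turned round. Of the 10, 9 were then above 0, with a median of 0.25 against a median of 0.69 over all genes. Tnfaip3 was at 0.22, Tnip1 at 0.20 and Cyld at 0.22, none of them past the threshold. Rnf11 (0.99, edgeR adjusted p = 0.0094) and Tax1bp1 (0.50, adjusted p = 0.034) passed as higher, in a fit where 4798 of 13172 genes were called. A change of scaling moves every gene by nearly the same amount. The difference of the 10-gene median from that of all genes, -0.44 with either scaling, is therefore not a separate result. Tnfaip3 gave 0.484, 0.440 and 0.513 reads per Treg marker read in libraries labelled Ythdf2 cKO and 0.311, 0.436 and 0.515 in the controls. In cage 2 these ratios ran from 0.440 to 0.515 and in cage 1 from 0.311 to 0.484.

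The genes with the pattern most like that of Tnfaip3 over the 6 libraries were Zdhhc18, H2-K1, Ncoa2, Med15 and Nlrc5. Likeness was the root mean square difference of log2 CPM after each gene was centred on its own mean, among 6196 genes with a mean of at least 20 CPM. It was 0.035 for Zdhhc18, which encodes a palmitoyltransferase, and 0.037 for H2-K1, an MHC class I heavy chain whose reads may be shared with related genes. It was 0.042 for Ncoa2, a nuclear receptor coactivator, 0.045 for Med15, a Mediator subunit, and 0.047 for Nlrc5, an activator of MHC class I genes, against a median of 0.31. Zdhhc18 was at 216, 154 and 145 CPM in libraries labelled Ythdf2 cKO and at 142, 172 and 124 CPM in the controls, the same order of libraries as Tnfaip3. Of the other 9 genes, Itch (0.10), Cyld (0.11) and Tnip1 (0.12) were nearest to Tnfaip3, and Rnf11 (0.41) was farthest.

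Beyond the 10 genes, the machinery that builds and reads the same chains was measured in 7 lists, and 0 of their 91 measured genes passed between the genotypes, where 0% of all genes did (edgeR; 2 had an unadjusted p under 0.05). In the linear ubiquitin ligase complex (LUBAC) and its adaptors, 3 of 5 genes were above 0 (median 0.0017). Rbck1, its HOIL-1 subunit, was at 72.5 ± 10.2 CPM in libraries labelled Ythdf2 cKO and 83.7 ± 11.6 CPM in the controls (SD, n = 3 each). Sharpin, another subunit, was at 25.4 ± 0.989 CPM in libraries labelled Ythdf2 cKO and 26.9 ± 2.01 CPM in controls. Spata2l had a log2 fold change of 0.26. Of 18 other deubiquitinases 12 were above 0 (median 0.025). The smallest unadjusted p was that of Otud5 (0.20), at 63.8 ± 2.44 CPM in libraries labelled Ythdf2 cKO and 73.9 ± 8.81 CPM in controls, and Usp4 had a log2 fold change of -0.17. Usp18, which removes the ubiquitin-like protein ISG15, was at 15.3, 6.06 and 5.69 CPM in libraries labelled Ythdf2 cKO and 3.43, 8.36 and 4.09 CPM in the controls.

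Of 19 measured genes that build chains, 14 were above 0 (median 0.056). Ube2v1, a partner of the chain-building enzyme Ube2n, was read 13, 23 and 10 times in libraries labelled Ythdf2 cKO and 3, 1 and 3 times in the controls, too few for a firm ratio. Ube2v2, its close relative, was at 4.08, 6.64 and 3.41 CPM in libraries labelled Ythdf2 cKO and at 7.31, 9.04 and 8.81 CPM in the controls, without overlap on that scale. Neither passed, nor did Bcl10, an adaptor of antigen receptor signalling, at -0.26. Of 13 IKK and TAK1 kinase genes 8 were above 0 (median 0.096). Ripk1, the kinase whose ubiquitin chains A20 edits, was at 141, 121 and 118 CPM in libraries labelled Ythdf2 cKO and at 103, 109 and 109 CPM in the controls, with no overlap and a log2 fold change of 0.24 (standard error 0.14, edgeR adjusted p = 1). Azi2, an adaptor of the related kinase TBK1, was at 80.1, 82.2 and 68.5 CPM in libraries labelled Ythdf2 cKO and at 82.9, 89.0 and 87.6 CPM in the controls, the opposite order, and did not pass. Map3k7, which encodes TAK1, had a log2 fold change of -0.16. Groups did not overlap in 7.62% of all genes tested, and the genes named from each list are those with its smallest p.

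Of 9 measured NEDD4 family ligases and Itch adaptors 6 were above 0 (median 0.20). Ndfip2, an adaptor that activates Itch, was at 43.1 ± 10.97 CPM in libraries labelled Ythdf2 cKO and 32.4 ± 4.72 CPM in the controls. Hecw2 was read 11, 14 and 24 times in libraries labelled Ythdf2 cKO and 5, 6 and 3 times in the controls. Wwp1, a ligase of the same family, had a log2 fold change of 0.25. Of 11 measured relatives of the 10 genes 6 were above 0 (median 0.021). Zc3h12a, which encodes the RNase Regnase-1, was at 145 ± 29.5 CPM in libraries labelled Ythdf2 cKO and 129 ± 30.01 CPM in controls. Otud6b was at 23.4 ± 6.64 CPM in libraries labelled Ythdf2 cKO and 34.6 ± 7.37 CPM in controls. Its groups did not overlap, as in 7.62% of all genes tested, and it did not pass the threshold. Calcoco1 had a log2 fold change of 0.14. Of 16 NF-kB feedback and target genes 12 were above 0 (median 0.040). Nfkb2 was at 308, 226 and 172 CPM in libraries labelled Ythdf2 cKO and 187, 233 and 144 CPM in the controls, and Cd83, a surface marker of activation, was at 67.4, 75.5 and 60.6 CPM in libraries labelled Ythdf2 cKO and 153, 135 and 37.0 CPM in the controls. Bcl3, an atypical IkB protein, had a log2 fold change of 0.20. Without Ythdf2 cKO replicate 1 the medians of all 7 lists were below 0, from -0.19 for the NF-kB feedback and target genes to -0.0081 for the chain builders. The median of all genes was -0.0069 in that fit, close to that of the chain builders.

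Between the cages 16 genes of the lists passed as lower in cage 2 and 2 as higher (edgeR with genotype as a term). Of all genes 11.5% were called, 3.68% as lower and 7.83% as higher. The NF-kB feedback and target list held 8 of the 16 lower list genes. In it 16 of 16 genes were below 0, against 49.2% of all genes, and the median was -0.58, close to that of the Treg markers. Nfkbia, the IkB-alpha gene, was at 503 CPM on average in cage 2 and 761 CPM in cage 1 (log2 fold change -0.67, edgeR adjusted p = 0.0075). Tnfrsf9 (4-1BB) was at 456 CPM in cage 2 and 730.3 CPM in cage 1 (-0.79, adjusted p = 0.0037). The chain builders Traf3, Birc2 and Peli1 were among the lower ones too, at -0.72, -0.66 and -0.65. The 2 higher genes were Nedd4 (3.71) and Nedd4l (2.69), ubiquitin ligases related to Itch, which stood at 385 and 76.3 CPM in cage 2 and at 41.8 and 15.7 CPM in cage 1. They moved in the direction of the melanoma markers, whose part in this was not tested. Genes named in this paragraph were chosen after their values were seen.

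**Figure D4:**
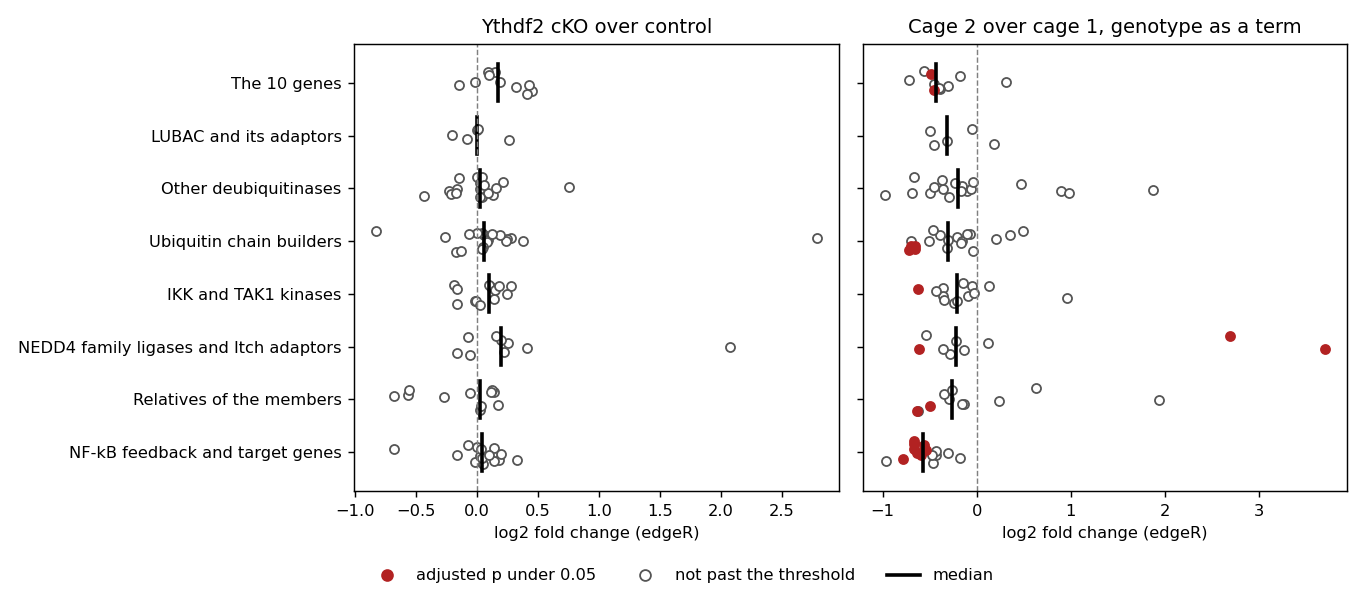
Log2 fold change of each measured gene in the 10-gene set and in 7 related lists, for Ythdf2 cKO over control (left) and cage 2 over cage 1 (right), with red points past the adjusted threshold and black bars for medians. There are 0 red points on the left, and on the right the NF-kB feedback and target list lies wholly below 0.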

How the data were processed

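The authors deposited 1 table of raw read counts per gene for each of 6 libraries (stranded total RNA kit, per the labels). Trimmomatic 0.39, HISAT2 2.1.0, HTSeq, DESeq2 and mm10 are named in the submitters' processing notes, while no annotation release or strand setting is given in the sources used here. Identifiers were matched to GENCODE M21 (54409 of 54446). Rows that name no gene were left out (reads in no gene 24.6% to 35.8% of records). Low genes were removed by filterByExpr (minimum count 10). After TMM scaling, edgeR 4.0.16 (R 4.3.3) gave quasi-likelihood tests, on genotype alone or on cage with genotype as a term, with Benjamini-Hochberg adjustment over all 13172 genes and a threshold of 0.05. TPM values use the union of exons. DESeq2 1.42.0 and limma 3.58.1 were alternatives, as were other scalings and filters, leaving out each library, a replicate block and cage terms. Scaling to Treg markers and the interaction were added after the data were seen. The fits were tested on simulated data. Intervals and tests cover read counts, which are not independent molecules. The most alike pair of libraries still differed beyond counting noise (chi-square 17.4 per degree of freedom). The 10 genes and the lists were chosen with earlier results of these data known. Named genes were all 10, up to 3 per list with the smallest genotype p, and the 5 most like Tnfaip3, apart from those said to be chosen after their values were seen.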

Additional observations from a re-analysis of the deposited data

Results flagged for a closer look

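In 3 genes the libraries labelled Ythdf2 cKO lay on opposite sides of the controls in the 2 cages, without overlap within either cage, as they did in 23.7% of all genes tested. The difference itself was then tested as an interaction of genotype and cage, a test chosen after the data were seen, in which cage 2 minus cage 1 gave -0.70 on the log2 scale for Otulin (standard error 0.32, edgeR adjusted p = 0.36), -0.53 for Otud7b (standard error 0.31, adjusted p = 0.46) and 0.49 for Ythdf2 (standard error 0.28, adjusted p = 0.46). Otulin was lower in the libraries labelled Ythdf2 cKO in cage 2, at 32.6 and 36.2 CPM against 44.3 CPM in the control, and higher in cage 1, at 64.6 CPM against 54.6 and 48.2 CPM. Otud7b took the same course, and Ythdf2 the opposite one. None of the 3 interactions passed, and 6 of 13172 genes did.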

How the results depend on the processing

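Between the genotypes 0 of the 10 genes passed under any of the 17 alternatives, and 0 of all genes passed except without a filter on low counts, which called 33. Otud7b turned to 0.12 when total counts set the scale and to 0.082 once cage was a term. Leaving out 1 library at a time gave log2 fold changes from -0.032 to 0.34 for Tnfaip3, -0.057 to 0.23 for Tnip1, -0.032 to 0.72 for Tnip2, -0.054 to 0.22 for Cyld, -0.52 to 0.025 for Otulin and -0.28 to 0.14 for Otud7b. Replicate numbers did not pair the libraries (correlations of deviations 0.41, -0.24 and 0.55), and with the replicate block 0 genes were called, Tnfaip3 was at 0.18 and N4bp1 had an unadjusted p of 0.048. Without Ythdf2 cKO replicate 1, Rnf11 (0.57) and Otulin (-0.52) had an unadjusted p under 0.05 by edgeR, in opposite directions, as did 310 of all 14077 genes tested.

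Between the cages the count over all genes was 1412 with total counts, 765 of them lower, where the median of all genes was -0.32. It was 2349 with DESeq2, 2347 without a filter, 849 with cage as the only term, 4798 with Treg marker scaling, and 660 to 1233 with 1 library left out. Of the 10 genes, 6 passed with total counts, 4 with DESeq2, 0 with cage as the only term and 0 to 2 with 1 library left out. With total counts Tnfaip3 (-0.79), Tnip2 (-1.05), Otulin (-0.90) and N4bp1 (-0.74) also passed, and Rnf11 turned to -0.026. Tnfaip3 also passed with DESeq2 (-0.44), limma-voom (-0.46), no filter (-0.48) and without mitochondrial, ribosomal RNA and haemoglobin genes (-0.45), and N4bp1 with DESeq2 (-0.38). With cage as the only term Tnip1 (-0.38) and Cyld (-0.37) missed the threshold. Scaled to Treg markers, Tnfaip3 was at 0.22, Tnip1 at 0.20, Tax1bp1 at 0.50, Itch at 0.37, Rnf11 at 0.99, Cyld at 0.22, Otulin at 0.12, Otud7b at 0.30 and N4bp1 at 0.28. With 1 library left out the cage difference ran from -0.56 to -0.34 for Tnfaip3, -0.50 to -0.45 for Tnip1, -0.53 to -0.38 for Cyld and -0.89 to -0.22 for Otulin. The causes were not tested.

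The median of the other deubiquitinases was 0.15 with total counts and -0.064 to 0.091 with 1 library left out, and that of the IKK and TAK1 kinases 0.22 and -0.064 to 0.15. With 1 library left out the other list medians ran from -0.14 to 0.045 (LUBAC), -0.0081 to 0.15 (chain builders), -0.013 to 0.31 (NEDD4 family), -0.14 to 0.11 (relatives) and -0.19 to 0.15 (NF-kB feedback and targets). Without Ythdf2 cKO replicate 1, 2 genes changed place in the order by TPM, and 0 did without any other library. Read counts were lowest for Tnip2, 122 to 320 per library, and Rnf11, 213 to 521 per library.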
